A study of Mus musculus with 16 samples.

Results

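YAP1 and TAZ (encoded by Yap1 and Wwtr1) are transcriptional co-regulators at the end of the Hippo pathway, in which the kinases LATS1 and LATS2 phosphorylate them and keep them out of the nucleus. In the nucleus they act mainly through TEAD transcription factors, and their target genes include matrix and signalling proteins, cytoskeletal regulators and proteins that restrain YAP1 and TAZ in turn. Described here are 10 such target genes in endothelial cells (ECs) of mouse bone: Thbs1, Fstl1, Crim1, Tgm2, Amotl1, Amotl2, Ajuba, Ddah1, Lhfp and Ankrd1. They were picked by symbol, and by Ensembl identifier where the files carry only that, and all 10 were found among the 38926 gene names of the mpEC and bmEC table and of the Lats2 table, and among the 21603 genes of the Yap1/Taz lists. Of these, Thbs1, Ddah1 and Lhfp were selected by the study as Yap1/Taz targets from the Lats2 libraries, and Crim1 and Tgm2 as Hippo targets from the mpEC and bmEC libraries. In the contrast on which a gene was selected its values are a description and carry no test.

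The 16 libraries form 3 comparisons. Metaphyseal ECs (mpECs, n = 3) and ECs of the diaphyseal marrow (bmECs, n = 3) were sorted from 3-week-old wild-type C57BL/6 mice carrying the endothelial reporter Cdh5-mT/nG. Bone ECs labelled Yap1/Taz iΔEC (n = 3) came from postnatal day 21 mice with floxed Yap1 and Wwtr1 alleles that were positive for Cdh5CreERT2, a tamoxifen-inducible Cre driven by an endothelial promoter, and their controls (n = 3) carried the same floxed alleles without Cre. Lats2 iΔEC bone ECs (n = 2) had floxed Lats2 alleles and Cdh5CreERT2, and their controls (n = 2) had the floxed alleles and no Cre. Per the methods, the Lats2 set also came from 3-week-old mice, and Cre was induced by injecting pups with tamoxifen. Each value is the FPKM of a gene in 1 library, which is its number of sequenced fragments per kilobase after scaling for depth. The 3 sets were normalised apart, so differences are tested only within a set.

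The labels were checked first, because they set every direction below. Yap1 stood at 1.07, 1.62 and 0.995 FPKM in the Yap1/Taz controls and at 1.43, 1.03 and 0.989 FPKM in the libraries labelled knockout, and the groups overlapped. Wwtr1 went against its label, with 10.01, 9.88 and 10.3 FPKM in the controls and 15.3, 19.6 and 19.5 FPKM in the libraries labelled knockout (difference 0.78 ± 0.12 SE on the log2 scale, adjusted p = 0.0272). A gene total also counts reads from exons outside a floxed segment, and the deposited values do not separate them. Lats2 was 23.4 and 24.0 FPKM in the Lats2 controls and 19.2 FPKM in both Lats2 iΔEC libraries (difference -0.29 ± 0.11, adjusted p = 0.125). The libraries labelled Yap1/Taz iΔEC are therefore called by that label throughout, and every direction given for this set rests on the labels and would turn if they were exchanged. The summed level of 8 endothelial markers, among them Cdh5 and Pecam1, was 779 to 983 FPKM in mpECs and bmECs. It was 397 to 408 FPKM in the Yap1/Taz controls, 457 to 543 FPKM in the libraries labelled Yap1/Taz iΔEC and 1335 to 1489 FPKM in the Lats2 set. None of the 8 was at 0 in all libraries of a set. Within these sums, single markers moved both ways. At an adjusted p under 0.05 in the limma test, Pecam1 and Vwf were higher and Kdr and Tek lower in Lats2 iΔEC than in control. Likewise, Kdr, Tek and Erg were higher and Pecam1, Emcn and Tie1 lower in bmECs than in mpECs.

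Promoter sequence is shown for the 4 genes whose window holds the core of the TEAD binding element, because these windows let the changes described below be read beside the letters of the start-site region. Promoter windows of 300 bases, from 250 before to 50 after the RefSeq start site on GRCm38.p6, were at hand for 8 of the 10 genes, all but Thbs1 and Tgm2. The letters GGAATG or, on the other strand, CATTCC were found in 4 of these 8 windows, against 14.7% of 32851 windows of the whole table. The windows are chr19:36119795-36120094 on the minus strand for Ankrd1, chr14:54577612-54577911 on the minus strand for Ajuba, chr9:102717554-102717853 on the plus strand for Amotl2 and chr17:78199998-78200297 on the plus strand for Crim1. They are printed 5′ to 3′ on the gene's strand, with the 6-base matches in capitals and the rest in lower case.
Ankrd1: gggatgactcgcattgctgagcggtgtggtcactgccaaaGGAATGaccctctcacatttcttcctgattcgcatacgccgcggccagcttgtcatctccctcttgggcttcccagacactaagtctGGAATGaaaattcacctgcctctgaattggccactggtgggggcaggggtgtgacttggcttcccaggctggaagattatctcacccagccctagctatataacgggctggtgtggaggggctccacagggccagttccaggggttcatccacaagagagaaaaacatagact
Ajuba: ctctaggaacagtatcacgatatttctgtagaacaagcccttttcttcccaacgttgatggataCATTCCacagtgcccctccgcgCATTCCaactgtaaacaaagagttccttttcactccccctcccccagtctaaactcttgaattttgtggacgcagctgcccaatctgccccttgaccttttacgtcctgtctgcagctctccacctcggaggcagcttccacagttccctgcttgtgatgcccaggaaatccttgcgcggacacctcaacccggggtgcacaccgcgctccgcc
Amotl2: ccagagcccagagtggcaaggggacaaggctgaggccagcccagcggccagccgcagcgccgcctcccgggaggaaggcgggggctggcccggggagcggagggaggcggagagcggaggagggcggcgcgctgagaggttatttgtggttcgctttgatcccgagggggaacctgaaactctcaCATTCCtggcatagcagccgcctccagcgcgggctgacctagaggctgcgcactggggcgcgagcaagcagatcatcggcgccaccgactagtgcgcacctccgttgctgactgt
Crim1: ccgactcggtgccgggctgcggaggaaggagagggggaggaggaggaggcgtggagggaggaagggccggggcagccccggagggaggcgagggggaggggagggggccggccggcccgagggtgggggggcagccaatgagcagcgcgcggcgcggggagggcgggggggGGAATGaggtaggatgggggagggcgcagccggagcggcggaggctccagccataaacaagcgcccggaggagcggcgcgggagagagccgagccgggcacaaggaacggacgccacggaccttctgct

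Ankrd1 and Ajuba each hold 2 matches, and 1.36% of all windows hold 2 or more. Those of Ankrd1 begin 210 and 123 bases before the start site and both read GGAATG. Those of Ajuba begin 186 and 164 bases before it and read CATTCC. Amotl2 has 1 match 65 bases before the start site and Crim1 has 1 match 79 bases before it. The windows of Fstl1, Amotl1, Ddah1 and Lhfp hold no match, which says only that these letters are not in this stretch.

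Across the 3 comparisons the genes did not move as a block. In bmECs relative to mpECs, 7 of the 10 genes could be tested and had not been selected there. Of these, Thbs1, Fstl1, Ddah1 and Lhfp were lower in bmECs and none was higher in the limma test at an adjusted p under 0.05, where 10.5% of 11422 tested genes were lower and 13% were higher. No further gene of the 7 was higher at an unadjusted p under 0.05, and limma-voom on approximate reads called 0 higher as well. The groups did not overlap for 4 of the 7, against 41.3% of all tested genes. Lhfp, 1 of the genes called lower, reached the filter of a mean of 1 FPKM only through mpECs, so it could only read lower. In Lats2 iΔEC relative to control, 7 genes could be tested and had not been selected there. Fstl1, Crim1, Amotl2 and Ajuba were higher and Tgm2 was lower, where 11.8% of 12453 tested genes were higher and 9.98% were lower. The groups of 2 did not overlap for any of these 7 genes, but the same held for 68.2% of all tested genes. Ankrd1, 1 of the 7, reached the filter of a mean of 1 FPKM only through Lats2 iΔEC.

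In the libraries labelled Yap1/Taz iΔEC, 0 of the 8 tested genes were called higher and 0 lower with limma, where 0.883% of 11320 tested genes were higher and 0.424% were lower. At an unadjusted p under 0.05, 3 of the 8 were higher and 0 were lower, and limma-voom on approximate reads called 0 or, at the scale of the deposited values, 1. The groups did not overlap for 3 of the 8, against 23.6% of all tested genes. Ddah1 and Ankrd1 were under the filter of a mean of 1 FPKM in this set. The median difference over the genes tested was 0.13 on the log2 scale there, -0.17 over 9 genes in bmECs relative to mpECs and 1.40 over 10 genes in Lats2 iΔEC, the selected genes included. The median of all tested genes was -0.0047, -0.00068 and -0.0033 in the same order. The medians over the 9 and the 10 genes take in genes selected on those contrasts, so they are a description and no evidence of direction.

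**Figure D1:**
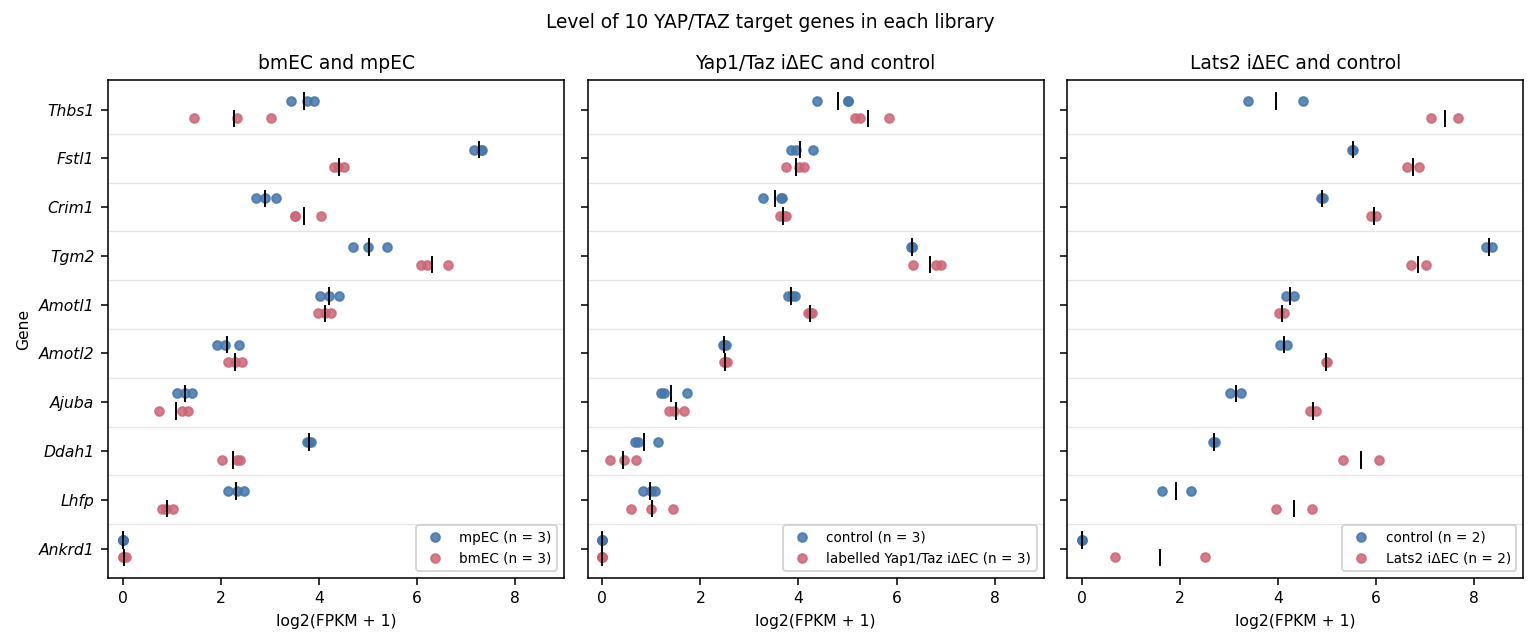
Level of the 10 genes in each library, as log2(FPKM + 1) on the horizontal axis, with 1 point per library and a black bar at the group mean, in mpECs and bmECs (left), control and labelled Yap1/Taz iΔEC (middle) and control and Lats2 iΔEC (right). Fstl1 lies far lower in bmECs (18.9 to 21.7 FPKM) than in mpECs (142 to 159 FPKM), and Thbs1, Ddah1 and Lhfp lie higher in Lats2 iΔEC than in its controls.

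The first group are proteins of the matrix and the cell surface. Thbs1 (chr2:118111876-118127133, plus strand) encodes thrombospondin 1, a matrix glycoprotein best known for restraining blood vessel growth. It was 12.6, 9.82 and 14.0 FPKM in mpECs and 7.14, 4.02 and 1.73 FPKM in bmECs. Every bmEC library was below every mpEC library, and the bmEC libraries spread over a wide range. The difference was -1.43 ± 0.35 on the log2 scale (adjusted p = 0.0213). This call was lost without mpEC replicate 1 (adjusted p = 0.0556), mpEC replicate 3 (adjusted p = 0.0742) or bmEC replicate 2 (adjusted p = 0.0542), and with no filter on low values (adjusted p = 0.0657), while the difference stayed between -1.96 (limma-voom on approximate reads) and -0.92 (a pseudocount of 5) in all 16 alternatives.

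In the Lats2 set, on which Thbs1 had been selected, it read 9.53 and 21.8 FPKM in the controls and 138 and 204 FPKM in Lats2 iΔEC, a 10.9-fold ratio of the means. The 2 controls differed from each other more than those of any other selected gene. The Yap1/Taz controls had 31.2, 31.3 and 19.9 FPKM of Thbs1, against 56.2, 34.6 and 37.1 FPKM in the libraries labelled knockout. These groups did not overlap, and the difference of 0.61 ± 0.21 missed the threshold (adjusted p = 0.163, 95% interval 0.15 to 1.08).

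Fstl1 (chr16:37776873-37836514, plus strand) encodes follistatin-like 1, a secreted glycoprotein. It was the most abundant of the 10 genes in mpECs, at 157, 142 and 159 FPKM, and was 18.9, 21.7 and 20.1 FPKM in bmECs. The groups were far apart and each was tight, with a 7.55-fold ratio of the means and a difference of -2.86 ± 0.09 (adjusted p = 2.58e-06). In the Lats2 set the direction was upward, from 45.2 and 44.6 FPKM in the controls to 116 and 97.8 FPKM in Lats2 iΔEC (difference 1.23 ± 0.13, adjusted p = 0.00979). For Yap1/Taz it read 18.7, 14.4 and 13.3 FPKM in the controls and 12.5, 16.2 and 15.1 FPKM in the labelled libraries. These groups overlapped (difference -0.07 ± 0.14, adjusted p = 0.842, 95% interval -0.39 to 0.25).

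Crim1 (chr17:78200248-78376592, plus strand) encodes a transmembrane protein with cysteine-rich repeats that binds growth factors. In the Lats2 set it was 28.3 and 29.2 FPKM in the controls and 58.6 and 63.3 FPKM in Lats2 iΔEC. The libraries of a group lay close together and the groups apart, with a difference of 1.06 ± 0.11 (adjusted p = 0.00986). Its window, printed above, holds 1 match to the TEAD element. In mpECs and bmECs, where it had been selected, it read 5.55, 7.74 and 6.44 FPKM and 10.5, 15.4 and 10.4 FPKM, a 1.84-fold ratio of the means. The Yap1/Taz groups overlapped, at 11.6, 11.5 and 8.73 FPKM in the controls and 11.3, 11.95 and 12.4 FPKM in the labelled libraries (difference 0.16 ± 0.12, adjusted p = 0.551, 95% interval -0.12 to 0.44).

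Tgm2 (chr2:158116402-158146436, minus strand) encodes transglutaminase 2, an enzyme that cross-links proteins. Alone among the 10 genes it was called lower in Lats2 iΔEC, with 301 and 329 FPKM in the controls and 129 and 103 FPKM in Lats2 iΔEC (difference -1.44 ± 0.15, adjusted p = 0.00986). It was the most abundant of the 10 genes in these controls. In mpECs and bmECs, where it had been selected, it read 24.9, 41.2 and 31.0 FPKM and 73.0, 66.8 and 98.7 FPKM, a 2.46-fold ratio of the means. In the Yap1/Taz set it was 79.0, 78.2 and 78.0 FPKM in the controls and 80.4, 110 and 119 FPKM in the labelled libraries. The difference of 0.37 ± 0.14 missed the threshold (adjusted p = 0.195) and passed it without replicate 1 of the labelled libraries (0.54, adjusted p = 0.0214). Exons of the genes Gm20412 and Rprd1b on the other strand share 21.8% of the exon bases of Tgm2, and the strand setting of the counting was not given in the sources used here.

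The second group are proteins that act back on the pathway. AMOTL1 and AMOTL2 are angiomotin-like scaffold proteins that can hold YAP1 in the cytoplasm, and AJUBA is a LIM domain protein that restrains LATS kinases. Amotl2 (chr9:102716672-102733418, plus strand) was 15.5 and 17.1 FPKM in the Lats2 controls and 30.5 and 30.9 FPKM in Lats2 iΔEC (difference 0.88 ± 0.12, adjusted p = 0.0131). This call was also lost without replicate 2 of Lats2 iΔEC (adjusted p = 0.0506). Amotl2 was 2.81, 4.14 and 3.24 FPKM in mpECs and 3.92, 4.39 and 3.42 FPKM in bmECs, with overlap (difference 0.17 ± 0.15, adjusted p = 0.457, 95% interval -0.17 to 0.50). All 6 libraries of the Yap1/Taz set lay between 4.495 and 4.81 FPKM (difference 0.02 ± 0.11, adjusted p = 0.956, 95% interval -0.23 to 0.27).

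Amotl1 (chr9:14541966-14645056, minus strand) was not called in any comparison. It was 16.9 and 19.0 FPKM in the Lats2 controls and 15.3 and 16.5 FPKM in Lats2 iΔEC (difference -0.16 ± 0.13, adjusted p = 0.394, 95% interval -0.49 to 0.16). It was 15.2, 20.2 and 17.6 FPKM in mpECs and 14.9, 16.5 and 18.0 FPKM in bmECs (difference -0.09 ± 0.12, adjusted p = 0.640, 95% interval -0.37 to 0.19). Amotl1 in the Yap1/Taz set read 14.1, 12.8 and 13.6 FPKM in the controls and 18.3, 17.8 and 17.3 FPKM in the labelled libraries. These groups were tight and did not overlap, yet the difference of 0.37 ± 0.09 missed the threshold over all genes (adjusted p = 0.0810), and limma-voom on approximate reads at the deposited scale called it (0.40, adjusted p = 0.0452).

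Since FPKM is per length, the levels of the 2 angiomotin-like genes can be set against each other within a library. The ratio of Amotl2 to Amotl1 was 0.917 and 0.901 in the Lats2 controls and 2.00 and 1.87 in Lats2 iΔEC. Amotl2 was thus slightly below Amotl1 in both controls and above it in both Lats2 iΔEC libraries. The ratio was 0.185 to 0.205 in mpECs and 0.190 to 0.265 in bmECs, and 0.327 to 0.371 in the Yap1/Taz controls and 0.250 to 0.278 in the labelled libraries. These ratios are given as a description, and levels between the 3 sets were not tested.

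**Figure D2:**
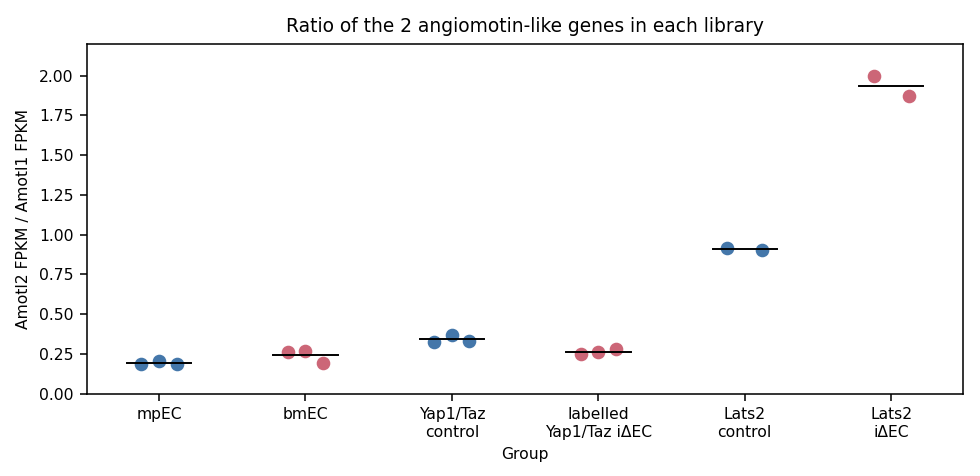
Ratio of Amotl2 to Amotl1 FPKM (vertical axis, no unit) in each of the 16 libraries by group, with black bars at group means. The 2 Lats2 iΔEC libraries sit at 2.00 and 1.87, their controls near 0.9, and all libraries of the other sets below 0.4.

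Ajuba (chr14:54567472-54577558, minus strand) was 7.11 and 8.49 FPKM in the Lats2 controls and 24.0 and 26.55 FPKM in Lats2 iΔEC. The ratio of the means was 3.24-fold and the difference 1.58 ± 0.14 (adjusted p = 0.00808), the largest of the genes called higher there that had not been selected in that contrast. It was low in the other sets, at 1.16, 1.66 and 1.41 FPKM in mpECs and 1.53, 0.664 and 1.31 FPKM in bmECs (difference -0.17 ± 0.19, adjusted p = 0.559, 95% interval -0.61 to 0.27). For Yap1/Taz it read 1.38, 2.32 and 1.29 FPKM in the controls and 1.77, 1.56 and 2.16 FPKM in the labelled libraries (difference 0.10 ± 0.19, adjusted p = 0.828, 95% interval -0.31 to 0.52). At these levels a library holds 23 to 60 approximate reads of Ajuba, which limits what could be detected.

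The remaining genes are Ddah1, Lhfp and Ankrd1. Ddah1 (chr3:145758675-145894277, plus strand) encodes an enzyme that breaks down asymmetric dimethylarginine, an inhibitor of nitric oxide synthases. It was 12.9, 12.5 and 13.4 FPKM in mpECs and 3.05, 4.27 and 4.03 FPKM in bmECs. The groups were tight and apart, with a 3.41-fold ratio of the means and a difference of -1.55 ± 0.12 (adjusted p = 0.000124). In the Lats2 set, on which it had been selected, it read 5.40 and 5.57 FPKM in the controls and 38.8 and 65.6 FPKM in Lats2 iΔEC, a 9.52-fold ratio of the means. Its level in the Yap1/Taz set was 0.582, 1.20 and 0.649 FPKM in the controls and 0.108, 0.601 and 0.354 FPKM in the labelled libraries. These are 2 to 33 approximate reads a library, and the groups overlapped.

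Lhfp (chr3:53041528-53261679, plus strand) was 3.46, 4.52 and 4.05 FPKM in mpECs and 0.749, 0.853 and 1.05 FPKM in bmECs (difference -1.41 ± 0.14). Because the scale adds 1 FPKM, this difference understates the 4.54-fold ratio of the means. Lhfp reached the filter of a mean of 1 FPKM only through mpECs, with means of 4.01 FPKM there and 0.883 FPKM in bmECs. These values are therefore a description. In the Lats2 set, on which it had been selected, it read 2.10 and 3.67 FPKM in the controls and 14.6 and 24.9 FPKM in Lats2 iΔEC, a 6.84-fold ratio of the means. The Yap1/Taz controls had 0.999, 1.10 and 0.766 FPKM of Lhfp and the labelled libraries 0.508, 1.70 and 1.002 FPKM, which overlapped (difference 0.05 ± 0.23, adjusted p = 0.948, 95% interval -0.46 to 0.55).

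Ankrd1 (chr19:36111961-36120099, minus strand) encodes an ankyrin repeat protein of the nucleus and of muscle sarcomeres, and is a widely used readout of YAP and TAZ activity. It was listed at 0 in both Lats2 controls and at 0.6005 and 4.67 FPKM in Lats2 iΔEC, which come to 7 and 67 approximate reads. No fold is given against controls at 0. The fitted difference of 1.59 ± 0.62, which depends on the added 1 FPKM, missed the threshold (adjusted p = 0.125) and the 2 Lats2 iΔEC libraries differed widely. Ankrd1 reached the filter of a mean of 1 FPKM only through Lats2 iΔEC, so only a rise could be found and its values are a description. The difference was 2.50 without replicate 1 of Lats2 iΔEC and 5.89 with limma-voom on approximate reads. Of the other 12 libraries, 11 had Ankrd1 at 0 and bmEC replicate 3 had 0.0481 FPKM, or 2 approximate reads.

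**Figure D3:**
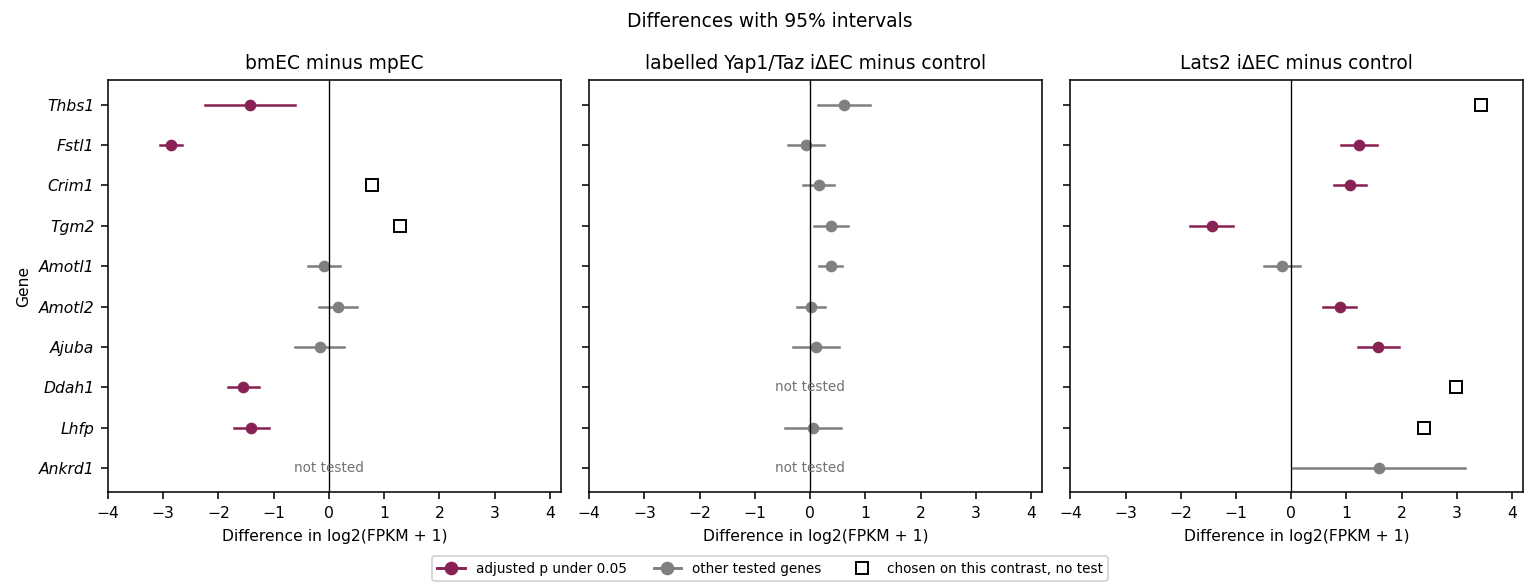
Difference in log2(FPKM + 1) with its 95% interval for each gene, as bmEC minus mpEC (left), labelled Yap1/Taz iΔEC minus control (middle) and Lats2 iΔEC minus control (right). Purple marks an adjusted p under 0.05, grey the other tested genes, and open squares are genes selected on that contrast, drawn with no interval. Lhfp on the left and Ankrd1 on the right reached the filter of a mean of 1 FPKM only through the higher group. Fstl1, Ddah1, Lhfp and Thbs1 lie left of 0 in the left panel and right of 0 in the right panel, and Tgm2 does the reverse.

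Read side by side, the values showed the following, described after they were seen. Thbs1, Fstl1, Ddah1 and Lhfp were higher in mpECs than in bmECs and read higher in Lats2 iΔEC than in control. Tgm2 read higher in bmECs than in mpECs and was lower in Lats2 iΔEC. Amotl2 and Ajuba were higher in Lats2 iΔEC, with differences between bmECs and mpECs whose 95% intervals include 0. Crim1 read higher in both bmECs and Lats2 iΔEC. Amotl1 was called in neither comparison. Ankrd1 was not called in Lats2 iΔEC and was too low to be tested in mpECs and bmECs. Thbs1, Ddah1 and Lhfp had been selected on the Lats2 set, and Tgm2 and Crim1 on mpECs and bmECs, so their direction there was known beforehand. Of Thbs1, Fstl1, Ddah1, Lhfp and Tgm2, only Fstl1 had been selected in neither comparison. The 2 comparisons share no library, and the difference between them was not tested.

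All 5 calls in the Lats2 set rest on having both controls. Without either control library no gene of the whole table passed the threshold, and the adjusted p of Fstl1, Crim1, Tgm2, Amotl2 and Ajuba lay between 0.110 and 0.144, with differences between 0.81 and 1.69 for the genes that read higher and of -1.50 and -1.38 for Tgm2. With scaling to total reads in place of the deposited scale, both in limma-voom on approximate reads, the median of all genes shifted by -0.194 in bmECs relative to mpECs and by -0.140 in Lats2 iΔEC, and the direction of every call above held.

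Some markers of other cells moved with these comparisons, and their part in the results was not tested. In bulk RNA, fewer cells of a type and less RNA per cell cannot be told apart. The summed level of 8 osteoblast-lineage markers was 229 to 810 FPKM in mpECs and 44.6 to 59.3 FPKM in bmECs, with 4 of the 6 tested genes lower in bmECs and none at 0 in all libraries. This moved with Thbs1, Fstl1, Ddah1 and Lhfp. Within the mpEC libraries the osteoblast-lineage sum was 810, 377 and 229 FPKM for replicates 1 to 3 while Fstl1 was 157, 142 and 159 FPKM and Ddah1 was 12.9, 12.5 and 13.4 FPKM. The sum of 9 dissociation stress genes was 1810, 2085 and 698 FPKM in bmEC replicates 1 to 3, where Thbs1 was 7.14, 4.02 and 1.73 FPKM, and 546 to 863 FPKM in mpECs. Macrophage markers summed to 1135 to 1964 FPKM in mpECs and 1005 to 1284 FPKM in bmECs. Erythroid markers summed to 17591 to 32789 FPKM in mpECs and 27343 to 37648 FPKM in bmECs. Pericyte and marrow stroma markers summed to 74.7 to 91.5 FPKM in mpECs and 35.3 to 86.9 FPKM in bmECs, with 1 of the 5 tested genes higher and 1 lower. Megakaryocyte and platelet markers summed to 77.3 to 331 FPKM and 79.6 to 477 FPKM, with 0 of the 6 tested genes called. The groups overlapped for the macrophage, erythroid, pericyte and platelet sums. The endothelial sum of these libraries was 779 to 983 FPKM.

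In the Lats2 set, the sum of 8 pericyte and marrow stroma markers was 46.8 and 61.3 FPKM in the controls and 108 and 109 FPKM in Lats2 iΔEC, with 4 of the 6 tested genes higher. Cxcl12 and Kitl made up most of this sum, with means of 26.0 and 18.2 FPKM in the controls and 40.7 and 41.0 FPKM in Lats2 iΔEC. Markers at lower levels had larger ratios. Acta2 went from a mean of 1.25 to 9.57 FPKM, Rgs5 from 1.37 to 6.29 FPKM and Pdgfrb from 0.401 to 2.66 FPKM. Cspg4 went from 0.0522 to 0.444 FPKM. Lepr changed little (6.62 and 7.82 FPKM), and Pdgfra was low in both groups (0.184 and 0.114 FPKM). The macrophage markers summed to 650 and 544 FPKM in the controls and to 292 and 70.5 FPKM in Lats2 iΔEC, and erythroid markers to 2530 and 1809 FPKM and to 1064 and 145 FPKM. Of the 4 tested genes of each list, 1 macrophage gene and 0 erythroid genes were called lower. Osteoblast-lineage markers summed to 80.9 and 13.8 FPKM in the controls, within which lay the 43.2 and 68.6 FPKM of Lats2 iΔEC. The megakaryocyte and platelet markers summed to 29.5 and 111 FPKM against 12.1 and 9.79 FPKM, with 1 of the 4 tested genes called lower. The osteoblast-lineage sum of the Yap1/Taz set was 41.0 to 60.1 FPKM in the controls and 13.2 to 30.9 FPKM in the labelled libraries, with 2 of the 6 tested genes lower. Beside Thbs1, Amotl1 and Tgm2, which read higher in the labelled libraries, the dissociation stress sum was 1727 to 1769 FPKM in the controls and 1786 to 2239 FPKM in the labelled libraries, and all 8 endothelial markers had positive differences (median 0.29), of which 0 were called.

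**Figure D4:**
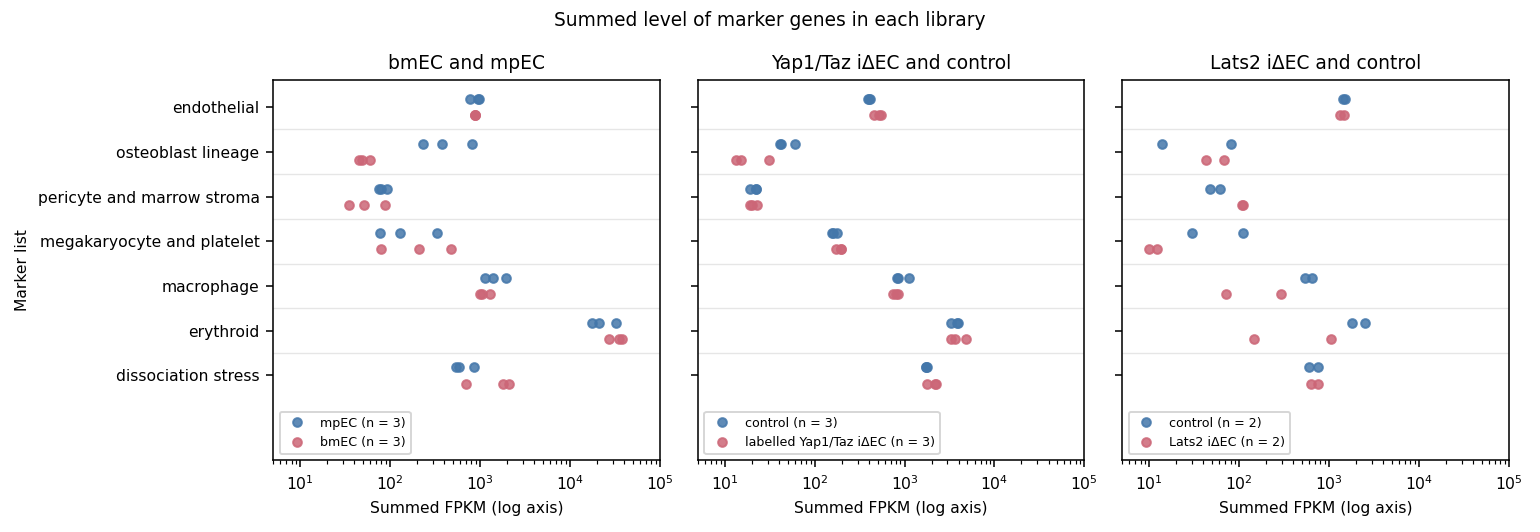
Summed FPKM of 7 marker lists in each library on a log axis, for the same 3 sets, with 1 point per library. The osteoblast-lineage sum is lower in bmECs than in mpECs. The macrophage, erythroid and platelet sums are lower, and the pericyte and stroma sum higher, in Lats2 iΔEC than in control.

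Other known targets of the pathway give the background to these genes, from a list of 19. The list overlaps in part with targets that the study itself picked on these libraries, and so is no independent evidence of direction. In Lats2 iΔEC, 5 of the 15 tested genes were higher and 1 was lower, where 11.8% and 9.98% of all tested genes were, and their median difference was 0.35. Cyr61 and Ctgf are among these 5 and were selected by the study on this contrast, so their values are a description. Myof and Tgfb2, also among the 5, passed the filter only through Lats2 iΔEC. Igfbp3 is the other gene called higher with limma (1.96 ± 0.30, adjusted p = 0.016). The count and the median are therefore a description as well. The 15 also include Lats2 itself, the targeted gene. Cyr61, a matrix protein and one of the best known YAP and TAZ targets, was 28.3 and 44.3 FPKM in the controls. It was 316 and 537 FPKM in Lats2 iΔEC, an 11.7-fold ratio of the means. Ctgf, its relative and the other classical target, went from 68.3 and 47.1 FPKM to 264 and 469 FPKM, a 6.35-fold ratio of the means. Myof, which encodes the membrane protein myoferlin, had a difference of 3.25 ± 0.28. Tgfb2, which encodes a TGF-beta ligand, had 2.97 ± 0.35. Their control means were 0.434 and 0.846 FPKM, so both reached the filter of a mean of 1 FPKM only through Lats2 iΔEC. These values too are a description. The gene called lower was the receptor tyrosine kinase Axl (-2.10 ± 0.14, adjusted p = 0.00654), named here after its value was seen.

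In bmECs relative to mpECs, 1 of the 13 tested genes of that list was higher and 4 were lower, where 13% and 10.5% of all tested genes were, and their median difference was -0.16. Igfbp3, which encodes a binding protein of insulin-like growth factors, had -2.82 ± 0.28 (limma, adjusted p = 0.00035) and Axl had 2.06 ± 0.16 (adjusted p = 0.000124). Nt5e, which encodes the ecto-enzyme CD73, had -1.13 ± 0.17. Its means were 2.25 FPKM in mpECs and 0.467 FPKM in bmECs. It thus reached the filter of a mean of 1 FPKM only through mpECs, and its value is a description. Ctgf was low in both groups (1.44 to 1.86 FPKM in mpECs and 0.861 to 2.38 FPKM in bmECs, adjusted p = 0.788), and Cyr61 overlapped (40.9 to 67.6 FPKM and 30.8 to 113 FPKM, adjusted p = 0.547). Axl was thus higher in bmECs and lower in Lats2 iΔEC, the same signs as those of Tgm2.

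In the libraries labelled Yap1/Taz iΔEC, 0 of the 13 tested genes of the list passed the limma threshold in either direction, where 0.883% of all tested genes were higher and 0.424% lower, and their median difference was 0.03. Ctgf was 12.003, 11.7 and 22.4 FPKM in the controls and 16.2, 4.78 and 5.91 FPKM in the labelled libraries (difference -0.83 ± 0.37, adjusted p = 0.282). Replicate 1 of the labelled libraries lay within the controls for Ctgf and the other two below them. Cyr61 was 15.2, 15.97 and 11.2 FPKM in the controls and 15.0, 23.0 and 21.8 FPKM in the labelled libraries (difference 0.46 ± 0.18, adjusted p = 0.204). Without replicate 1 of the labelled libraries, 215 genes were higher and 78 lower over the whole table, against 100 and 48 with it, and 1 of the 10 genes, Tgm2, was called.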

How the data were processed

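RNA was measured in sorted bone ECs by paired-end sequencing of stranded total RNA libraries. Per the methods and the labels, the authors mapped reads to GRCm38 (mm10) by TopHat, counted reads for each gene by HTSeq 0.6.1 and used DESeq2 for their own tests. The deposited values are FPKM. The step from counts to FPKM and the strand setting are not given in the sources used here. The methods state that biological triplicates were sequenced, but the Lats2 set analysed here has 2 libraries a group.

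For each comparison, log2(FPKM + 1) was fitted, for genes whose mean reached 1 FPKM, with limma 3.58.1 under R 4.3.3 (group term, empirical Bayes with a mean-variance trend). P-values are two-sided and Benjamini-Hochberg adjusted over all genes tested, and a gene was called under 0.05. Differences are on the log2(FPKM + 1) scale and understate the change of low genes. Values with ± are SE.

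Approximate reads were derived with exon lengths of GENCODE M21 (GRCm38), which also gave coordinates. At 20 reads or fewer, 62.3% to 70.0% of the values in a library were whole to within 0.02 reads, against 4% by chance. Reads on genes came to 11122353 to 14756086 per library for mpECs and bmECs, 4889916 to 7162896 for the Yap1/Taz set and 4732638 to 7073919 for the Lats2 set, where 1 read in a gene of 2000 bases is worth 0.0405 to 0.0608, 0.0726 to 0.107 and 0.0841 to 0.132 FPKM. All 10 genes are named in every comparison, with the targeted genes, Ctgf, Cyr61 and the 3 called genes of the 19-gene list with the largest differences. Members and lists were chosen with earlier results of these data known. The fits were tested on simulated data. Alternatives were other pseudocounts (0.1 and 5), filters, scalings, no trend, a replicate block, limma-voom on approximate reads and each library left out. The voom fit at the deposited scale was added after seeing the data.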

Additional observations from a re-analysis of the deposited data

How the results depend on the processing

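Of the 402 values of single genes under the alternatives, 363 kept their direction and their side of the threshold. Where no test applied, they kept their direction and lay within 1 SE of the main difference. Over all genes, limma-voom on approximate reads gave 967 higher and 2651 lower in bmECs, 190 and 137 in the libraries labelled Yap1/Taz iΔEC and 2153 lower in Lats2 iΔEC, against 1481, 1201, 100, 48 and 1243. At the deposited scale it gave 1566 and 1388 in bmECs, 1664 and 1612 in Lats2 iΔEC and 243 and 92 for Yap1/Taz, with 1 of the 10 genes higher there. No filter gave 0 and 1 for Yap1/Taz and 720 and 669 for Lats2, and no trend gave 10 and 7 for Yap1/Taz. Leaving out each library gave 1018 to 1353 higher and 799 to 1026 lower in bmECs (3 to 4 of the 10 genes lower), 0 to 215 and 1 to 78 for Yap1/Taz (0 to 1 higher), and 0 to 1446 and 0 to 1255 for Lats2 (0 to 5 higher and 0 to 1 lower). Without a control library of Lats2 the lone control is assumed to vary like the other group.

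Whether the replicate numbers pair the samples is not settled by these values, and they were not used as pairs. Same-numbered libraries had correlations of their deviations of 0.307, 0.0876 and 0.102 in mpECs and bmECs, -0.175, -0.123 and -0.155 in the Yap1/Taz set and 0.0651 in the Lats2 set, and not every library correlated best with its own number. With 2 libraries a group, the Lats2 correlations can differ only in sign. The replicate block moved the Yap1/Taz counts from 100 higher and 48 lower to 29 and 16. It moved the bmEC counts from 1481 higher and 1201 lower to 1597 and 1475. No call of the 10 genes changed with it.

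Signs turned for differences near 0 only. Leaving out each library gave Amotl1 in bmECs -0.187 to 0.0076 (highest without mpEC replicate 2) and Ajuba -0.292 to 0.0095 (highest without bmEC replicate 2). In the Yap1/Taz set, Lhfp was -0.029 with quantile normalization and -0.026 (without control replicate 3) to 0.254 with each library left out, Amotl2 was -0.026 with limma-voom on approximate reads, and Fstl1 was -0.165 to 0.065 with each library left out, above 0 without control replicate 1 (0.065) and without labelled replicate 1 (0.028). The cause was not tested. Depth limits Ankrd1 and, in the Yap1/Taz set, Ddah1 and Lhfp.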
